A study of Homo sapiens with 19 samples.

Results

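The 10 genes described here belong to 2 apolipoprotein clusters, each with a place bound by dCas9 in cells with single guide RNAs (sgRNAs) against LTR2B. TOMM40, APOE, APOC1, APOC4 and APOC2 lie together on chromosome 19, and APOL6, APOL3, APOL4, APOL2 and APOL1 lie on chromosome 22. They were taken by name from the GENCODE annotation of hg38, 10 of 20033 protein-coding genes. Every peak of histone H3 acetylated at lysine 27 (H3K27ac, found at active promoters and enhancers) in the clusters or within 50 kb of them was mapped. Chromatin immunoprecipitation sequencing (ChIP-seq) peak lists of 5 of the 19 samples were used, each from 1 library with no replicate. H3K27ac lists came from HL-60 and Molm13 cells without vector, and from OCI-AML3 and K562 cells that carried dCas9 fused to the KRAB repressor and mCherry together with an empty sgRNA vector marked by BFP, sorted for both colours. HL-60, Molm13 and OCI-AML3 are acute myeloid leukaemia (AML) lines and K562 is a chronic myeloid leukaemia line. The dCas9 list came from K562 cells with the same dCas9-KRAB-mCherry and 4 sgRNAs against LTR2B. Vector and cell line cannot be told apart in these lists, and no difference between lines could be tested.

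Apolipoproteins coat lipid particles and direct them to enzymes and receptors. APOE is the ligand through which lipoprotein remnants are taken up by cells, APOC2 is the cofactor of lipoprotein lipase, APOC1 hinders receptor uptake and cholesteryl ester transfer, and APOC4 is a minor very-low-density lipoprotein component. TOMM40, which shares their neighbourhood only by position, forms the import channel of the mitochondrial outer membrane. The APOL genes are a primate-expanded, largely interferon-inducible family, of which APOL1 is the secreted trypanolytic factor of serum and the others act inside cells. LTR2B elements are long terminal repeats (LTRs), the regulatory ends left by an endogenous retrovirus. In CRISPR interference, dCas9-KRAB carried to a repeat by its sgRNAs deposits repressive chromatin there.

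dCas9 bound 1 place in each cluster, at chr19:44914115-44914365 and at chr22:36250396-36250863 in hg38. The sgRNAs, as listed among the reagents of the study, and the sites they met there are shown because they set where dCas9 could bind relative to each transcription start site (TSS). They are written 5′ to 3′ on the guide strand, with capitals for bases that differ from the guide and for the NGG motif that follows the site.
sgRNA 2: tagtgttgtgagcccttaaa
sgRNA 2 site at APOC1: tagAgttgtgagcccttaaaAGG
sgRNA 2 site at APOL1: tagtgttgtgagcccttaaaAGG
sgRNA 3: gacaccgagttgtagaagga
sgRNA 3 site at APOL1: gacaccgagtAgtagaaggaAGG
sgRNA 4: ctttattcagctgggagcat
sgRNA 4 site at APOL1: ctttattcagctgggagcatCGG
sgRNA 1: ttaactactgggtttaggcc
sgRNA 1 site beside the APOL1 peak: ttaactaAtgggtttaggccAGG

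At APOC1 the only sgRNA site with at most 3 mismatches in the whole 159 kb window was that of sgRNA 2 at chr19:44914281-44914300, on the plus strand, with the single change T4A (the base of the guide, its position from the 5′ end, then the base of the site). The summit of the dCas9 peak lay at position 44914289, 1 bp from the middle of this site. The closest matches of sgRNAs 1, 3 and 4 within 400 bp of the summit had 7, 6 and 8 mismatches and no NGG after them. The 719 kb APOL window held 4 sites with at most 3 mismatches, 1 for each sgRNA and all upstream of APOL1. The sites of sgRNA 2 (chr22:36250568-36250587) and sgRNA 4 (chr22:36250642-36250661) were perfect, that of sgRNA 3 (chr22:36250666-36250685) differed by T11A, and that of sgRNA 1 (chr22:36250374-36250393) differed by C8A and ended 3 bp before the peak. The APOL1 summit at 36250674 lay 1 bp from the middle of the sgRNA 3 site. Peaks with sites of exactly 1 sgRNA, as at APOC1, made up 67 of the 393 dCas9 peaks on chromosomes 1 to 22, X and Y (17%), and those with sites of 3 sgRNAs, as at APOL1, made up 66 (16.8%).

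The single-site peak at APOC1 had the higher fold enrichment over local background, 8.50 against 6.82 for the APOL1 peak, which was called over a wider stretch (468 bp against 251 bp). Their ranks among the 393 dCas9 peaks were 167 and 237. Both were thus middling peaks of their list, whose median was 7.62. Repeat annotation was not used here, so the bound places are described by their sgRNA sites and likeness. Aligned to each other, the 2 places matched over chr19:44914101-44914427 and chr22:36250389-36250718 in the same orientation, with 248 identical bases among 322 aligned (77.0%) and 13 gapped bases. The sgRNA 2 site sat within this shared stretch in both.

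The bound copy at APOC1 overlapped annotated TSSs, whereas the copy at APOL1 did not. The study describes an LTR2 element upstream of the APOC1 promoter, of a family closely related to LTR2B. It cites earlier work in which this element served as an alternative APOC1 promoter in several tissues, but found no sign of such starts in K562 or OCI-AML3. In the study, deleting the element in K562 lowered APOC1 and APOE expression. Use of the annotated starts was not measured here. The APOC1 peak covered 2 of the 7 annotated APOC1 TSSs, its summit was 36 bp upstream of the nearest and 319 bp upstream of the canonical one, and the annotation places it over an APOC1 exon and an overlapping long non-coding gene, ENSG00000280087. From the same summit the nearest TSS of APOE was 7.93 kb away, that of TOMM40 20.5 kb, that of APOC4 27.9 kb and that of APOC2 31.7 kb. The APOL1 copy was intergenic, with its summit 2.40 kb upstream of the nearest APOL1 TSS and 2459 bp upstream of the canonical one. APOL2, transcribed in the opposite direction, began 10.7 kb from the summit, APOL4 45.8 kb, APOL3 84.5 kb and APOL6 602 kb. Of all dCas9 peaks, 47 (12%) lay within 500 bp of a coding TSS.

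H3K27ac covered the APOC1 copy wholly in Molm13, OCI-AML3 and K562 and touched its edge in HL-60. The Molm13 peak (chr19:44909876-44915736) was 5861 bp wide with a fold enrichment of 8.75 and q = 1.28e-17. That of OCI-AML3 (chr19:44911498-44915801) was 4304 bp wide with a fold enrichment of 4.15 and q = 9.55e-14, and that of K562 (chr19:44909218-44917428) was 8211 bp wide with 4.15 and q = 5.56e-10. These peaks reached 4.37 kb, 2.75 kb and 5.03 kb upstream of the first APOC1 TSS, and that of K562 shared its first 176 bp with APOE. The HL-60 peak (chr19:44914333-44915395, fold enrichment 3.44, q = 0.00543) began 44 bp after the summit and shared 33 bp with the dCas9 peak, 13.1% of it. So in HL-60 the called peak lay over the canonical APOC1 start but not over the sgRNA site. The overlap in HL-60 was lost with a q-value below 0.001 or when 50% of the dCas9 peak had to be covered.

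At the APOL1 copy no line had an H3K27ac peak over the bound sequence. The nearest was in K562, at chr22:36252010-36256591, which began 1147 bp after the dCas9 peak and spanned every APOL1 TSS, with a fold enrichment of 4.27 and q = 1.17e-07. In Molm13 the nearest peak (chr22:36255148-36255553, fold enrichment 3.03, q = 0.0388) lay 4285 bp away inside APOL1. In HL-60 and OCI-AML3 the nearest were the APOL2 promoter peaks, 10434 bp and 10868 bp away. For comparison, H3K27ac in K562 overlapped 76 of the 393 dCas9 peaks (19.3%), and another 36 lay within 2 kb of a K562 peak. In all 4 lines, as at APOC1, 38 (9.67%) were overlapped. Among the 47 dCas9 peaks within 500 bp of a coding TSS, to which that of APOC1 belongs, 29 were overlapped in all 4 lines. Of the 66 peaks with sites of 3 sgRNAs, 65 had no K562 H3K27ac over them. The K562 H3K27ac list came from cells without sgRNAs, so these overlaps were not measured in the cells where dCas9 was bound.

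**Figure D1:**
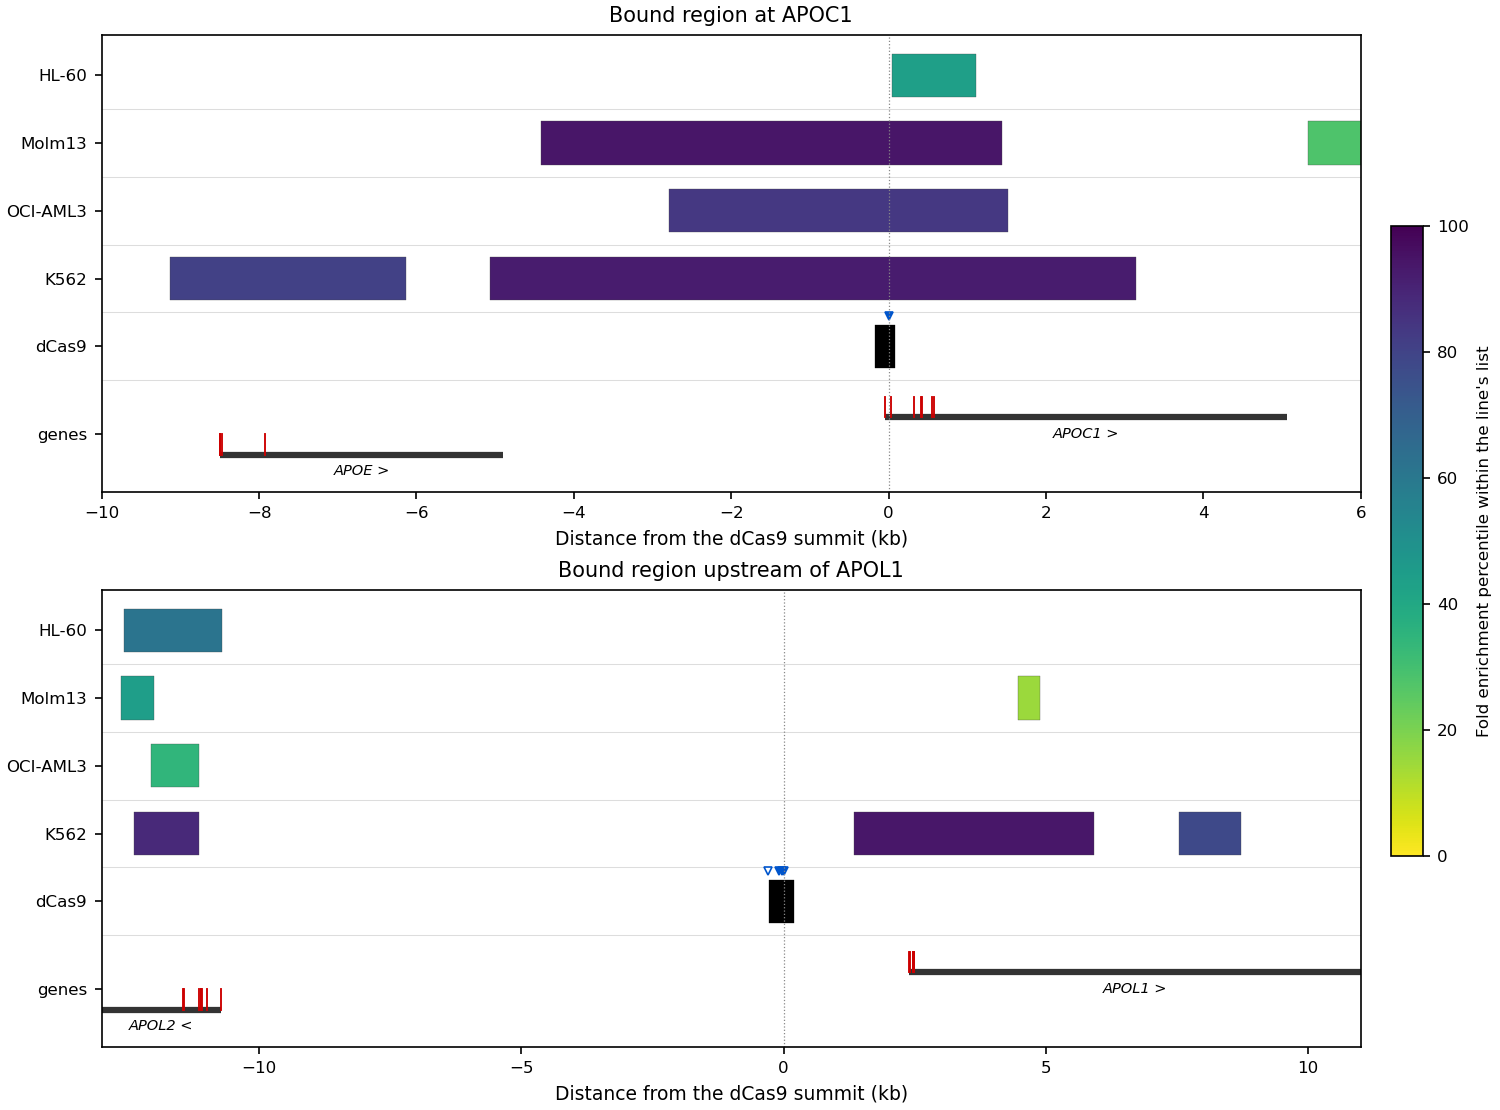
H3K27ac peaks of 4 lines (boxes coloured by fold enrichment percentile within each list), the dCas9 peak (black), sgRNA sites (blue triangles, open where outside the peak), gene bodies (bars, arrowheads give the direction) and annotated TSSs (red ticks), by distance from the dCas9 summit in kb. At APOC1 all 4 lines have a peak touching the dCas9 peak, and at APOL1 the nearest, in K562, begins 1147 bp after it.

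A larger share of the APOC-APOE window than of the APOL window lay under H3K27ac peaks in every line. In the 159 kb APOC-APOE window, 10 peaks in K562, 15 in Molm13, 11 in OCI-AML3 and 6 in HL-60 covered 14.8%, 26.0%, 18.8% and 5.28% of the bases, respectively. Over chromosomes 1 to 22, X and Y the shares, in the same order, were 2.62%, 1.98%, 2.39% and 0.820%, so the window stood at 5.67 to 13.1 times the genome. Chromosome 19 as a whole, which is gene-dense, had 6.60%, 5.87%, 5.22% and 2.51%. In the 719 kb APOL window, 15, 12, 13 and 6 peaks covered 3.17%, 1.43%, 1.27% and 0.644%, and K562 alone was above its genome share, by 1.21 times, but below the 3.47% of chromosome 22. By number, the APOL window held more peaks per 100 kb than the genome in every deposited list. The values were 2.09 against 1.27 in K562, 1.67 against 1.20 in Molm13, 1.81 against 1.28 in OCI-AML3 and 0.834 against 0.707 in HL-60. This excess was lost in HL-60 with a q-value below 0.05 (3 peaks left). It was also lost in Molm13 and OCI-AML3 among the 20772 strongest peaks of each list (4 peaks each). K562 kept it under both limits, with 15 and 11 peaks. Much of that window is the long RBFOX2 gene between APOL6 and APOL3. In the 227 kb about APOL1 to APOL4, coverage was 6.03% in K562, 2.43% in Molm13, 2.00% in OCI-AML3 and 0.924% in HL-60, and in the 120 kb about APOL6 it was 1.48%, 2.61%, 2.61% and 1.11%. Each set against the genome share of its own line, coverage about APOL1 to APOL4 was above it in K562, Molm13 and HL-60 and below it in OCI-AML3, and about APOL6 it was above in Molm13, OCI-AML3 and HL-60 and below in K562 (0.564 times).

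**Figure D2:**
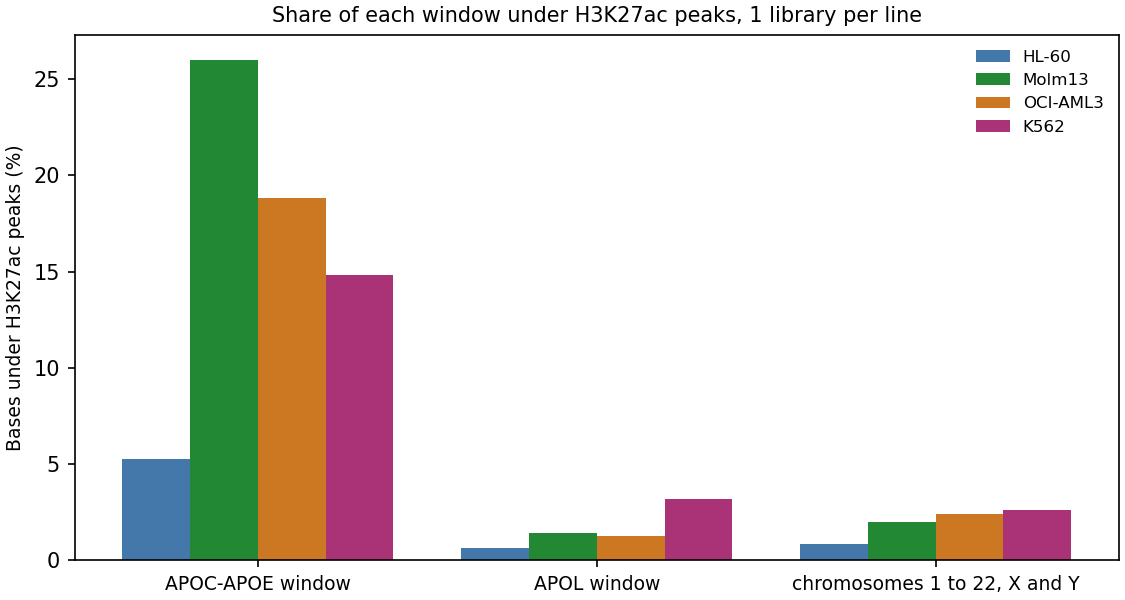
Share of bases under H3K27ac peaks, in percent, in each window and over chromosomes 1 to 22, X and Y, for 1 library per line (bars). The APOC-APOE window ranges from 5.28% in HL-60 to 26.0% in Molm13, and the APOL window from 0.644% in HL-60 to 3.17% in K562.

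When the peaks of the 4 lines were merged, the APOC-APOE window held 21 regions, of which 3 were found in all lines and 12 in 1 line. The 3 shared regions lay at TOMM40, at APOC1 and at CLPTM1, a neighbouring membrane protein gene. The APOL window held 30 regions, of which 2 were found in all lines, at APOL6 and APOL2, and 21 in 1 line. Over the genome 11.7% of merged regions were found in all 4 lines, against 14.3% and 6.67% in the 2 windows. Regions of K562 alone made up 26.7% of the APOL regions and 14.3% of the APOC-APOE regions, beside 28.0% over the genome. Regions of Molm13 alone made up 6 of the 21 APOC-APOE regions (28.6%), beside 12.7% over the genome. Their peaks had fold enrichments of 2.98 to 3.61, below the Molm13 list median of 3.80, and q-values from 0.00488 to 0.0455. All but the one over the APOC4 start lay in NECTIN2 or CLPTM1.

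**Figure D3:**
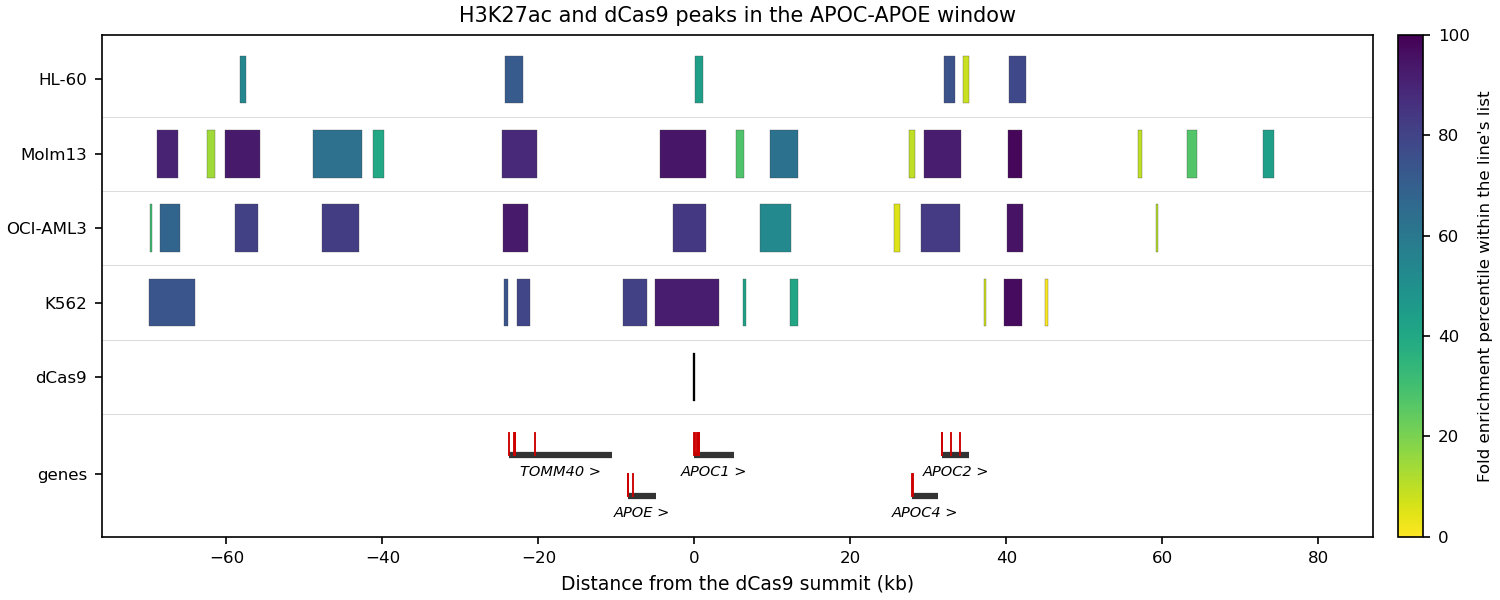
H3K27ac peaks of 4 lines (boxes coloured by fold enrichment percentile within each list) and the dCas9 peak in the APOC-APOE window, by distance from the dCas9 summit in kb, with gene bodies and annotated TSSs (red ticks). The APOE promoter, 7.93 kb left of the summit at its nearest TSS, has a peak in K562 only, and the APOC2 region, 31.7 kb to the right, has peaks in HL-60, Molm13 and OCI-AML3.

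A promoter was called marked where an H3K27ac peak lay within 500 bp of any annotated TSS of the gene. By this rule 8 of the 10 genes were marked in K562, 6 in Molm13, 7 in OCI-AML3 and 5 in HL-60. The share of all coding genes marked was 55.9% in K562, 53.9% in Molm13, 57.7% in OCI-AML3 and 44.7% in HL-60. The HL-60 list was also the shortest, with 20772 peaks against 35136 to 37571 in the others. With 10 genes and 1 library per line, none of these counts was tested against its background, and no excess is read from them. The canonical TSS alone gave 7, 6, 6 and 5 genes in this order, against 52.1%, 49.9%, 54.0% and 41.0% of all coding genes.

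TOMM40, APOC1 and APOL6 were marked in all 4 lines, a pattern found in 40.5% of coding genes. At TOMM40 (canonical TSS 44891254) single peaks with fold enrichments of 7.31 in Molm13, 4.86 in OCI-AML3 and 4.57 in HL-60 spanned the start. K562 had 2 peaks there instead, at chr19:44889875-44890424 (fold enrichment 3.40) and chr19:44891533-44893225 (3.55), the second of which began 279 bp after the canonical TSS, so TOMM40 in K562 was not marked when the peak had to cover a TSS. At APOL6, the most distant APOL gene and one with a single annotated TSS (35648446), fold enrichments were 3.61 in K562, 6.97 in Molm13, 4.46 in OCI-AML3 and 4.45 in HL-60. These APOL6 peaks stood at the 80.5th, 87.2nd, 88.5th and 69.9th percentile of their own lists, where the percentile is the share of peaks in the list with the same or a lower fold enrichment. Fold enrichments are compared here only within a list, since they depend on the depth and background of each library.

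APOC1 was the member with the strongest mark in Molm13, at the 94.2nd percentile of its list, and it stood at the 92.2nd in K562, the 83.7th in OCI-AML3 and the 43.96th in HL-60. Its RefSeq promoter (GRCh38.p14, chr19:44914422-44914721, plus strand, 250 bases before to 50 after the start) began beyond the end of the dCas9 peak and is printed because H3K27ac covered it in all 4 lines. Capitals mark a CAGNTG match on the minus strand.
APOC1 promoter: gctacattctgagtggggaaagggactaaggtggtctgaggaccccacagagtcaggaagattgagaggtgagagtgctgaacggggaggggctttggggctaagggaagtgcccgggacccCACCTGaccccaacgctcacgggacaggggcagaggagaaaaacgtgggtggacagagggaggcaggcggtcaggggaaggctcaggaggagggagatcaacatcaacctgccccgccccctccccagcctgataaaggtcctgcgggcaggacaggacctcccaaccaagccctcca

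APOE, by contrast, had a promoter peak in K562 alone, a pattern shared by 4.78% of coding genes. The peak lay at chr19:44905161-44908152, with a fold enrichment of 3.62, q = 5.43e-07 and the 80.8th percentile, and covered all 4 annotated APOE TSSs and 70.4% of the gene. In HL-60, Molm13 and OCI-AML3 the nearest peak to an APOE TSS was the APOC1 peak, at 7973 bp, 3516 bp and 5138 bp, and no base of the APOE gene was covered. The APOE promoter of the canonical TSS (RefSeq, GRCh38.p14, chr19:44905546-44905845, plus strand) is printed because K562 was the only line with a peak over it. Capitals mark a GAGGAA match on the minus strand.
APOE promoter: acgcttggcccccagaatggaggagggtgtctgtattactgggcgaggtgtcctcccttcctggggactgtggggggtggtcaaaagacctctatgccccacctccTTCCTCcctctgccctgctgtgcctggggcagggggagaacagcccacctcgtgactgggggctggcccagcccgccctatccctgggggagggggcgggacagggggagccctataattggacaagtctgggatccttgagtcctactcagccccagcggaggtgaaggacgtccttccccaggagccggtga

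APOC2 showed the opposite pattern, with peaks in the 3 AML lines and none in K562, which 2.22% of coding genes shared. In Molm13 and OCI-AML3 peaks of 4773 bp and 5015 bp (fold enrichments 8.16 and 4.10) ran from inside APOC4 over the APOC2 starts, and covered 70.8% and 64.7% of APOC2. The HL-60 peak (chr19:44946313-44947683, fold enrichment 4.78) began 262 bp after the canonical TSS. A second HL-60 peak 499 bp from an APOC2 TSS had a fold enrichment of 2.93 and q = 0.0796, above the 0.05 limit stated in the methods. The closest K562 peak was 3182 bp from an APOC2 TSS, with a fold enrichment of 2.36. The APOC2 promoter (RefSeq, GRCh38.p14, chr19:44945801-44946100, plus strand) is printed beside that of APOE for this contrast and held none of the 4 motifs searched.
APOC2 promoter: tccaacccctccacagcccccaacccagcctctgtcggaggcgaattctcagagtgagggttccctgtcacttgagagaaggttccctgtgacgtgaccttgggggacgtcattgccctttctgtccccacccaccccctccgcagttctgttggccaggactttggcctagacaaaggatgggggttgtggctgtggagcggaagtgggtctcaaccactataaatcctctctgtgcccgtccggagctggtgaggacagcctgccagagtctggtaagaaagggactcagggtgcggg

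APOC4 was marked in Molm13 alone, by a weak peak at chr19:44941864-44942551 with a fold enrichment of 2.98, q = 0.0447 and the 9.98th percentile. This peak also covered the start of the APOC4-APOC2 readthrough gene. In OCI-AML3 the nearest peak was 1029 bp from an APOC4 TSS and was the one over APOC2, in HL-60 it was 4039 bp and in K562 9194 bp away. Although its start was seldom marked, 62.9% of the APOC4 gene was covered in Molm13 and 67.3% in OCI-AML3. Downstream of APOC1, peaks of Molm13 and K562 reached over the start of the pseudogene APOC1P1 (fold enrichments 4.38 and 2.73), an OCI-AML3 peak (3.02) ended 145 bp from it, and HL-60 had no peak there. A smaller region between APOC1 and APOC1P1 was found in Molm13 and K562.

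On chromosome 22, APOL1 was marked in K562 alone, and its peak was the 2242nd of 37424 in that list by fold enrichment, at the 94.0th percentile. It covered all 6 annotated APOL1 TSSs, which lie within 93 bp of each other, and with a second K562 peak inside the gene (fold enrichment 3.52) it brought 32.5% of APOL1 under H3K27ac. In HL-60 and OCI-AML3 the peaks nearest to an APOL1 TSS were 13109 bp and 13543 bp away. The Molm13 peak inside APOL1 was 1984 bp from the nearest TSS and covered 2.81% of the gene. APOL1 in Molm13 would be marked with a TSS window of 2000 bp.

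APOL2 had peaks near its start in every line, but in Molm13 the peak ended short of the rule. Fold enrichments were 4.00 in HL-60 (chr22:36238105-36239962), 2.68 in OCI-AML3 (chr22:36238606-36239528) and 3.94 in K562 (chr22:36238289-36239536), at the 61.6th, 34.4th and 88.4th percentile. The Molm13 peak (chr22:36238036-36238673, fold enrichment 3.62) lay 554 bp inside the gene from the nearest TSS, so that a 2000 bp window marked APOL2 in all lines. APOL2, an intracellular family member, was thus acetylated at or just inside its start in each list. Its marked pattern under the 500 bp rule, all lines but Molm13, was shared by 0.664% of coding genes.

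APOL4 was marked in Molm13, OCI-AML3 and K562. The K562 peak (chr22:36200322-36203221, fold enrichment 4.34, q = 8.65e-08) was the highest of the APOL window in that line, at the 94.8th percentile. The Molm13 peak (chr22:36200382-36202373) had a fold enrichment of 3.73 and the 48.0th percentile. That of OCI-AML3 (chr22:36201582-36201918) was 337 bp wide with a fold enrichment of 2.37 and q = 0.0485. The HL-60 peak nearest to an APOL4 TSS was 6364 bp away. APOL4 was covered over 34.1% of its length in K562, 12.7% in Molm13 and 2.14% in OCI-AML3.

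APOL3, which has 11 annotated TSSs spread over 9292 bp, was marked in OCI-AML3 and K562 at the group of starts nearest its 3′ end and not at the canonical one. The K562 peak (chr22:36155651-36156979) had a fold enrichment of 2.89 and q = 0.00293, and that of OCI-AML3 (chr22:36156627-36157363) had 2.31 and q = 0.0176. Neither reached the canonical TSS at 36160755, from which the K562 peak was 3776 bp away. In HL-60 and Molm13 the nearest peaks to an APOL3 TSS were 45027 bp and 34205 bp away. OCI-AML3 had 2 further peaks inside APOL3, which were 781 bp and 2246 bp from a TSS.

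**Figure D4:**
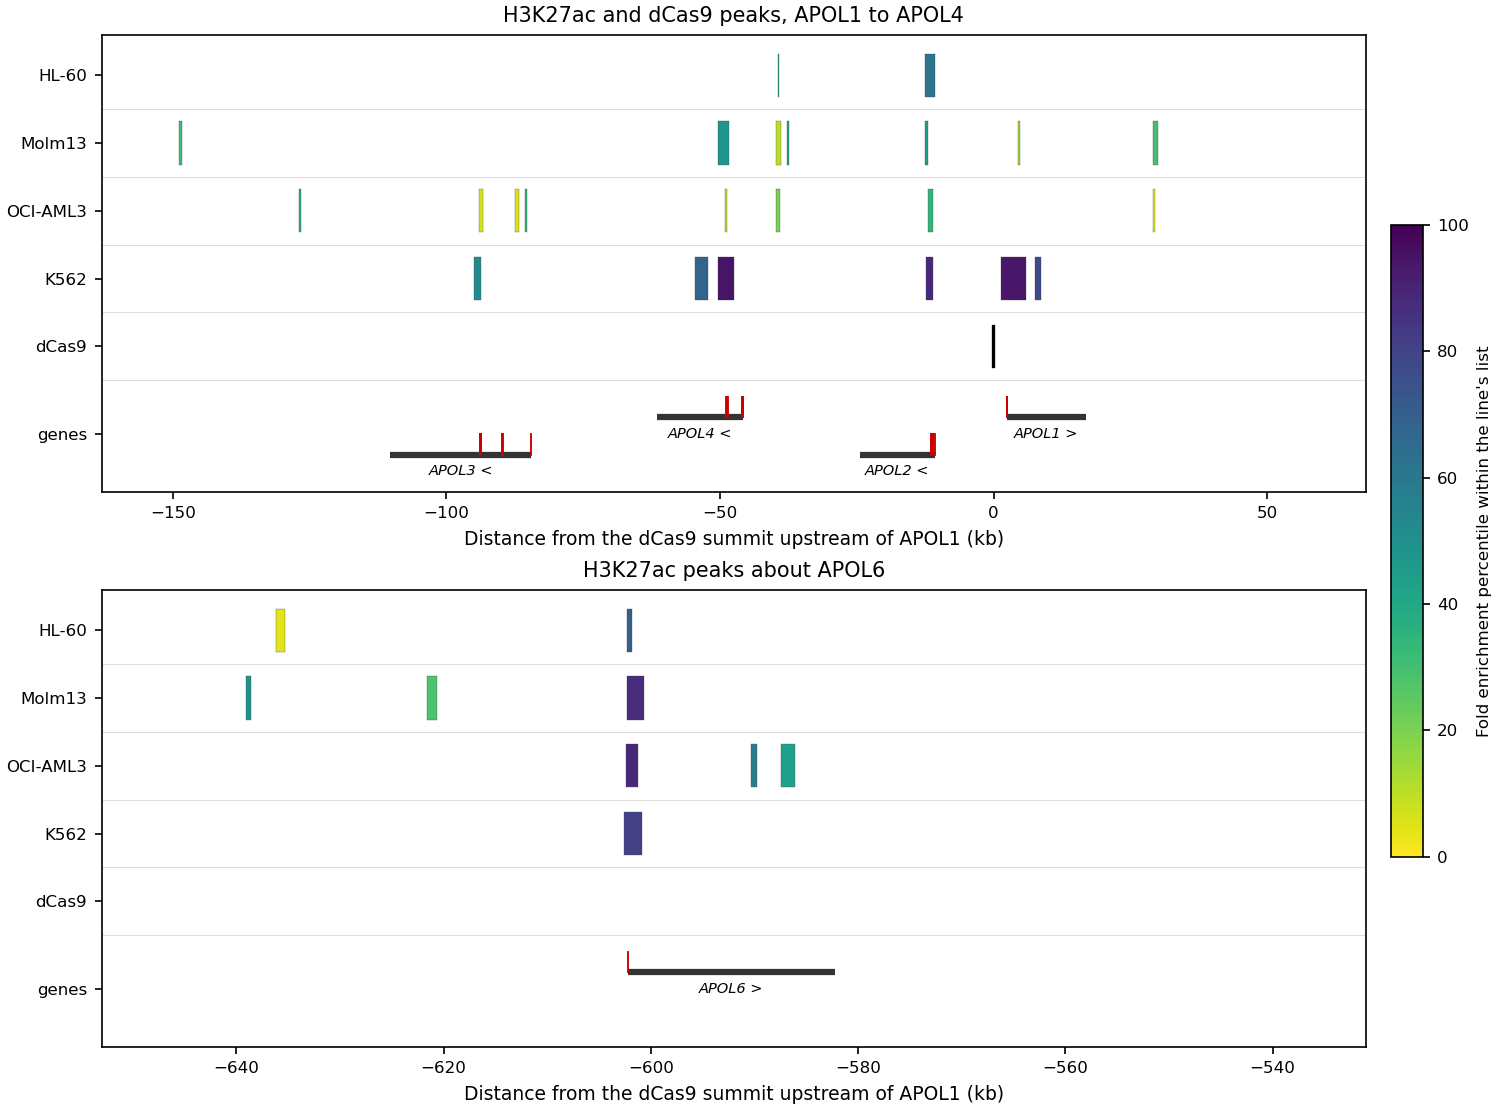
H3K27ac peaks of 4 lines (boxes coloured by fold enrichment percentile within each list) and the dCas9 peak about APOL1 to APOL4 (top) and APOL6 (bottom), by distance from the dCas9 summit in kb, with gene bodies and annotated TSSs (red ticks). K562 has its highest ranked boxes at APOL4 and APOL1, at the 94.8th and 94.0th percentile, and APOL6 has a peak at its start in all 4 lines.

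With a q-value below 0.001 the marks of APOC1 in HL-60, APOC4 and APOL4 in Molm13, APOL3 and APOL4 in OCI-AML3 and APOL3 in K562 were lost, which left 7 marked members in K562, 5 in OCI-AML3 and 4 each in Molm13 and HL-60. Under this limit the marked shares of all coding genes in K562, Molm13, OCI-AML3 and HL-60 were 49.5%, 47.4%, 53.3% and 36.2%. Among the 20772 strongest peaks of each list, K562 marked 8 members and each other line 5, and the shares of all coding genes lay between 44.7% in HL-60 and 53.0% in OCI-AML3, with 52.5% in K562.

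The strongest H3K27ac peak of the APOC-APOE window was in every line the one at the CLPTM1 promoter, with fold enrichments of 4.56 in K562, 11.4 in Molm13, 5.07 in OCI-AML3 and 5.11 in HL-60. In the APOL window it was that of APOL6 in HL-60, Molm13 and OCI-AML3 and that of APOL4 in K562. Of the other coding neighbours, NECTIN2, a cell adhesion receptor gene, was marked in Molm13, OCI-AML3 and K562. MYH9, which encodes non-muscle myosin heavy chain and lies next to APOL1, was marked in all 4 lines, but only by peaks beyond the APOL window. Within the window no peak lay within 500 bp of a MYH9 TSS, and the closest, in Molm13, was 5390 bp away. The splicing regulator RBFOX2 was marked in Molm13, OCI-AML3 and K562, by peaks at the 13.7th, 2.11th and 42.8th percentile of their lists. The myoglobin gene MB was marked in HL-60 by a peak with q = 0.0847, and APOL5 in no line.

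Other lipid genes were counted from lists by the same rule, against the shares of all coding genes given above. Of 17 genes of lipoprotein and cholesterol handling, 10 were marked in K562, 12 in Molm13, 13 in OCI-AML3 and 12 in HL-60, and 8 in all lines. The latter included the liver X receptor genes NR1H2 and NR1H3, and SREBF1 and SREBF2, which drive lipid synthesis. ABCA1, the cholesterol exporter, was marked in HL-60 and OCI-AML3, LPL, the lipase that APOC2 activates, in HL-60, and CETP in Molm13. Of 11 other genes with apolipoprotein names, which include APOL5 of the APOL window, 2 were marked in each line, APOM and APOLD1. The remaining 9, among them APOA1, APOB and APOC3, were marked in none. Of 12 interferon response genes 9 were marked in K562, 8 in Molm13, 11 in OCI-AML3 and 8 in HL-60, with STAT2 and IRF1 in all 4.

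The line labels were checked on promoters in the same way. Of 10 erythroid and megakaryocytic genes, 10 were marked in K562, 2 in HL-60 and 3 each in Molm13 and OCI-AML3, and GATA1, KLF1, HBG1 and HBZ were marked in K562 alone. Of 10 myeloid genes, 6 were marked in K562, 10 in Molm13, 10 in OCI-AML3 and 7 in HL-60, and MPO, ELANE, CEBPA and FLT3 had no mark in K562. Of 5 monocyte and macrophage genes, 1 was marked in K562, 2 in Molm13, 3 in OCI-AML3 and 1 in HL-60, and of 5 liver genes, SERPINA1 in OCI-AML3 was the only one marked. All 8 housekeeping genes were marked in every line. The part of these line differences in the APOE, APOC2 and APOL1 patterns was not tested.

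The genes outside the windows whose promoter percentiles over the 4 lines were most like those of APOC1 were MLST8, MCTS1 and ZNF7, at Euclidean distances of 5.62, 6.33 and 7.24 percentile points. For APOL6, the APOL gene with the highest mean percentile, they were SIAH2, R3HDM2 and RPS24, at 3.04, 3.55 and 3.77 points. Each distance rests on 4 values from 4 libraries.

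Motifs were searched on both strands in 250 bp about the dCas9 summits. A TTCNNNGAA match, the core of STAT sites, lay at the end of the APOC1 peak (chr19:44914357-44914365), against 2.29% of the 393 dCas9 windows with such a match, and a GAGGAA match, the core of PU.1 sites, was found in the same APOC1 window beyond the end of the peak, against 12.2%. The APOL1 window had neither of them. A CAGNTG match at chr22:36250649-36250654, inside the sgRNA 4 site, was the only one of the 4 motifs there, and 64.4% of dCas9 windows had one. The GATA-factor core AGATAA was found in neither window and in 5.60% of all windows, but 1 match lay in the APOC1 peak outside its window (chr19:44914134-44914139, minus strand). Among promoters in the RefSeq table, which matched 5 of the 10 genes with 7 sequences, TTCNNNGAA was found at TOMM40 alone, against 7.66% of 35116 promoters. AGATAA was found only in an APOE promoter not printed here (chr19:44906151-44906450), against 10.3% of promoters. That sequence also held 2 GAGGAA matches, against 27.9% of promoters with any. Besides the printed APOC1 promoter, CAGNTG matches lay in another unprinted APOE promoter (chr19:44905771-44906070) and in the unprinted APOC4 promoter (chr19:44942146-44942151, minus strand), against 49.9%. Such matches describe the letters and not factor binding.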

How the data were processed

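Peak lists of 5 samples were analysed, and the other 14 samples were not analysed here. Per the labels and methods, the authors trimmed reads with Trim Galore (0.4.5), aligned them to hg38 with Bowtie2 (2.3.4 in the processing notes), kept uniquely mapped reads and called peaks with MACS2 (2.1.1), in broad mode for H3K27ac. Unique mapping lowers signal over near-identical repeat copies. The control used by MACS2 is not given in the sources used here. The deposited lists give, per peak, a fold enrichment (a ratio to local background) and the −log10 p-value and −log10 q-value of the authors. The largest H3K27ac q-value of a list was between 0.0947 and 0.0995, above the stated 0.05, and lists were used as deposited. Depth is unknown, since the lists hold no read counts, so no interval is given.

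Peaks on chromosomes 1 to 22, X and Y were mapped to GENCODE 44 in 1-based coordinates, with 1 bp overlaps, windows of 50 kb about each cluster and promoters of 500 bp about any TSS. The sgRNA sequences were read from the reagent list of the study, repeat annotation was not used, and the 2 places were aligned with Biopython (1.88; match 1, mismatch -1, gap opening -3, gap extension -1). No test was made. All members and coding neighbours were named, with the dCas9 peaks, promoter peaks, peaks within 2 kb of dCas9 and the strongest peak per window and line, and the 3 genes most like APOC1 and the leading APOL gene. Members, lists and motifs were chosen with earlier results of these data known. APOC1P1 and other single regions were named after their values were seen. The promoter rule and the sgRNA site search were tested on simulated data, and the other overlap and distance code was not. Python 3.11.15, NumPy 2.4.6, pandas 2.3.3 and matplotlib 3.10.9 were used.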

Additional observations from a re-analysis of the deposited data

How the results depend on the processing

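Of 148 recomputed values, 124 stayed within 1.5 times the reported one and 24 moved further. The counts of marked members did not move by more than this under any alternative, nor did the dCas9 peak counts or the sgRNA sites in the dCas9 peaks. With a q-value below 0.001, peaks in the APOC-APOE window fell to 6 in K562 and 8 in Molm13, and in the APOL window to 1 in Molm13, 4 in OCI-AML3 and 2 in HL-60, with 0.232%, 0.418% and 0.329% covered. With a q-value below 0.05, HL-60 had 3 peaks in the APOL window and 0.362% covered. With equal list lengths, Molm13 had 8 peaks in the APOC-APOE window and 4 in the APOL window (0.667% covered), and OCI-AML3 had 4 there (0.418%). With 10 kb flanks the APOC-APOE window held 7 peaks in Molm13 and 6 in OCI-AML3, with 9.75% covered in HL-60 and 22.3% in K562. With 100 kb flanks the APOL window was covered over 2.61% in Molm13, 2.03% in OCI-AML3 and 1.66% in HL-60. The HL-60 overlap with the APOC1 dCas9 peak went to 0 with a q-value below 0.001 and when H3K27ac had to cover 50% of the dCas9 peak, an alternative chosen after seeing the data. The cause of these moves was not tested, apart from fewer peaks under stricter limits and other bases under other flanks.

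Each list is 1 library, its depth is unknown, and a missing peak does not show that the mark was absent. No paired analysis was possible because no group has more than 1 list and no test was run.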
